A study of Homo sapiens with 12 samples.

Results

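The expression of 9 genes that mark or set breast epithelial lineage was followed across 12 RNA sequencing libraries: *ESR1*, *PGR*, *GATA3*, *FOXA1*, *FOXC1*, *TFAP2B*, *SPDEF*, *ELF5* and *TP63*. They were taken by gene name from a table of 57187 genes, and each matched 1 row. The rule used no measured value, although earlier results of these data were known when the genes were chosen. The libraries came from 4 human cancer cell lines, and each line gave 1 library of control cells, 1 of cells with *SIVA-WT* and 1 of cells with *SIVA-D160N*. *SIVA1* encodes a pro-apoptotic protein, and the D160N change was studied for its effect on tumor cell spread. The breast lines were MDA-MB-231 and HCC1954, and the ovarian lines OVCAR8 (OVAR-8 in the sample labels) and SKOV3 (SKOV-3). *SIVA-WT* and *SIVA-D160N* cells were stable, polyclonal, hygromycin-selected transfectants. The sample labels give the control cells as parental and untreated, whereas the study's text states that the control lines expressed the empty vector (EV), the name used here. These sources conflict, and if the labels hold, transfection and selection cannot be told apart from the effect of *SIVA*.

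In the mammary gland, luminal cells line the ducts and basal cells surround them, and each layer is held by its own transcription factors. *ESR1* (estrogen receptor alpha) and *PGR* (progesterone receptor, an ESR1 target) are hormone-activated receptors of luminal cells. *FOXA1* opens chromatin for ESR1, and *GATA3* works beside both in luminal cells. *SPDEF* and *ELF5* are ETS factors of luminal and of alveolar progenitor cells, while *TP63* and *FOXC1* are tied to basal cells and basal-like tumors. *TFAP2B* belongs to the AP-2 family, which is active in breast epithelium.

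Gene positions are those of RefSeq on GRCh38.p14, and GRCh38 is also the build of the counts. *ESR1* lies at chr6:151656672-152129619, *PGR* at chr11:101029624-101129813, *GATA3* at chr10:8045333-8075198, *FOXA1* at chr14:37589552-37595249 and *FOXC1* at chr6:1609915-1613897. *TFAP2B* lies at chr6:50818355-50847619, *SPDEF* at chr6:34537802-34556329, *ELF5* at chr11:34478791-34513794 and *TP63* at chr3:189596746-189897276.

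The promoters of 4 genes are shown because they stood for the patterns described here: *FOXA1* and *SPDEF* were high in HCC1954 and low elsewhere, *FOXC1* was present in every line, and *ELF5* had no read in any library. Each sequence is the 250 bases before the gene start in the RefSeq promoter table (GRCh38.p14), 5′ to 3′ on the strand of the gene, with CG dinucleotides in capitals. *FOXA1* is at chr14:37595250-37595499 (minus strand), *SPDEF* at chr6:34556330-34556579 (minus), *FOXC1* at chr6:1609665-1609914 (plus) and *ELF5* at chr11:34511725-34511974 (minus). The *ELF5* window precedes a start that lies inside the gene span given above, while the other 3 windows adjoin the ends of their genes.
FOXA1: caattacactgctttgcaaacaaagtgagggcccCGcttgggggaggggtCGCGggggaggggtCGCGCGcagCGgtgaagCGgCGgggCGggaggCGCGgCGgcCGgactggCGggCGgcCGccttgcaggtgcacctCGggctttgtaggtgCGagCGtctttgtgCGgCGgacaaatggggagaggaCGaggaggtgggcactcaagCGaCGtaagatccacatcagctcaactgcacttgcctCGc
SPDEF: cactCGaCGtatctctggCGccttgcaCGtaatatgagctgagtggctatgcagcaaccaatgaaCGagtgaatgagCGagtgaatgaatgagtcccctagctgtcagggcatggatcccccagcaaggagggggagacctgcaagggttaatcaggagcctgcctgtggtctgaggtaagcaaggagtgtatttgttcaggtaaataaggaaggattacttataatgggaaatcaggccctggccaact
FOXC1: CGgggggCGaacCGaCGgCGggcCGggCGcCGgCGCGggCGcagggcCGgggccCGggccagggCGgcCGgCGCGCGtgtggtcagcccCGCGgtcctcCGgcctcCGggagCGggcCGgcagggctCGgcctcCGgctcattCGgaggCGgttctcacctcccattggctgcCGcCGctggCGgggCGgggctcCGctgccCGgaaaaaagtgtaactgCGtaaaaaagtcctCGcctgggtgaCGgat
ELF5: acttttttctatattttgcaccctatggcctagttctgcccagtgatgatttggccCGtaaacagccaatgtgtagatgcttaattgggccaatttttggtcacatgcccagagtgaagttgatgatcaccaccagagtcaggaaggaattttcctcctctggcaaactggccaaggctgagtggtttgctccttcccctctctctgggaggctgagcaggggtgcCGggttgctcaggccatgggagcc

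The *FOXC1* window held 37 CG dinucleotides and 76.8% G and C, and 4% of the 35116 windows in the table had as many CG. The *FOXA1* window held 26, the *SPDEF* window 6 and the *ELF5* window 2, as many as in 19.6%, 61.9% and 85.3% of windows. Hence *FOXA1* and *SPDEF*, the most similar pair of members in expression, differed in CG content at their starts. The forkhead motif TGTTTAC (both strands) was in 1 of 21 member windows, that of *ELF5*, and in 2.98% of all windows. The GATA motif AGATAA and the nuclear receptor motif AGGTCA were in 0 of 21, against 9.17% and 12.1% of all windows. A match, or none, describes only these letters in this window.

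Depth and labels were checked first. Total counts ran from 35791455 to 45890398, so that 3 counts, the limit a count of 0 allows, equal 0.0664 to 0.0856 CPM (counts scaled to the size of the library after TMM normalization). These limits and the intervals given here cover counting error only. *SIVA1* was higher in both transfectants of every line than in its EV library, with counts from 1272 to 2419 in 3 EV libraries and 930 to 6723 in the transfectants. The HCC1954 EV library held 0 *SIVA1* counts, and results that rest on it are given with *SIVA-WT* as the reference too. The ovarian marker *PAX8* was at 239 CPM in SKOV3 and 68.3 CPM in OVCAR8 (line means), against 2.95 in MDA-MB-231 and 2.15 in HCC1954. Breast markers did not follow the labels in this way, since 3 of 7 were at 1 CPM or more in MDA-MB-231, HCC1954 and OVCAR8 and 2 of 7 in SKOV3, while *SCGB2A2* (mammaglobin) had no count in any line. Ovarian markers at 1 CPM or more were 2 of 7 in MDA-MB-231 and in OVCAR8 and 5 of 7 in HCC1954 and in SKOV3. Of 10 markers of blood, endothelial, liver, glial and red cells, 0 to 2 reached 1 CPM, summing to at most 3.96 CPM except in HCC1954 (34.5 to 66.7 CPM, mostly *PECAM1*), and their part in the results was not tested.

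These genes differed more between lines than between *SIVA* conditions. The question of this comparison is how the 4 lines differ in lineage identity, with the 3 libraries of a line as its replicates (n = 3). They share a cell line and differ in *SIVA* condition, which the fit takes as a term. The p-values rest on the spread left between libraries after line and condition, pooled over the lines, and measure no spread between tumors. An SD over the 3 libraries of a line includes differences between conditions. Genes were tested by edgeR's quasi-likelihood method in 19204 genes and called where the FDR was under 0.05 and the log2 fold change at or beyond 1.5 either way. Of the 9 genes, 7 passed the filter on low counts, and *TFAP2B* and *ELF5* did not. *PGR* passed only through OVCAR8, so that its calls in the pairs with OVCAR8 follow from the filter and are no separate evidence. In HCC1954 vs MDA-MB-231, 5 of the 7 tested were called, all higher, beside 33% of all genes (19.6% higher and 13.5% lower). In OVCAR8 vs HCC1954, 7 of 7 were called, 6 of them lower in OVCAR8, beside 34.3% (16.6% higher and 17.7% lower). In SKOV3 vs HCC1954, 5 of 7 were called, all lower, beside 32.8% (16% higher and 16.8% lower). In OVCAR8 vs MDA-MB-231, 3 of 7 were called (1 higher and 2 lower, beside 26.3% of all genes, 15.7% higher and 10.6% lower). In SKOV3 vs MDA-MB-231 they were 2 higher and 3 lower (29.6%, 17.2% higher and 12.4% lower), and in SKOV3 vs OVCAR8 again 2 higher and 3 lower (31.1%, 15.3% higher and 15.8% lower). The median log2 fold change of the tested members was 4.80 in HCC1954 vs MDA-MB-231, against 0.03 over all genes, and -5.41 and -7.07 for OVCAR8 and SKOV3 vs HCC1954, against 0 for both. The median was the *FOXA1* value in each of these pairs, and setting genes with 3 or fewer counts in a line to the limit left all 3 unchanged. The levels of breast and ovarian lines are given side by side with no test between the tissues, and 2 lines against 2 cannot go below an exact two-sided permutation p of 0.333.

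**Figure D1:**
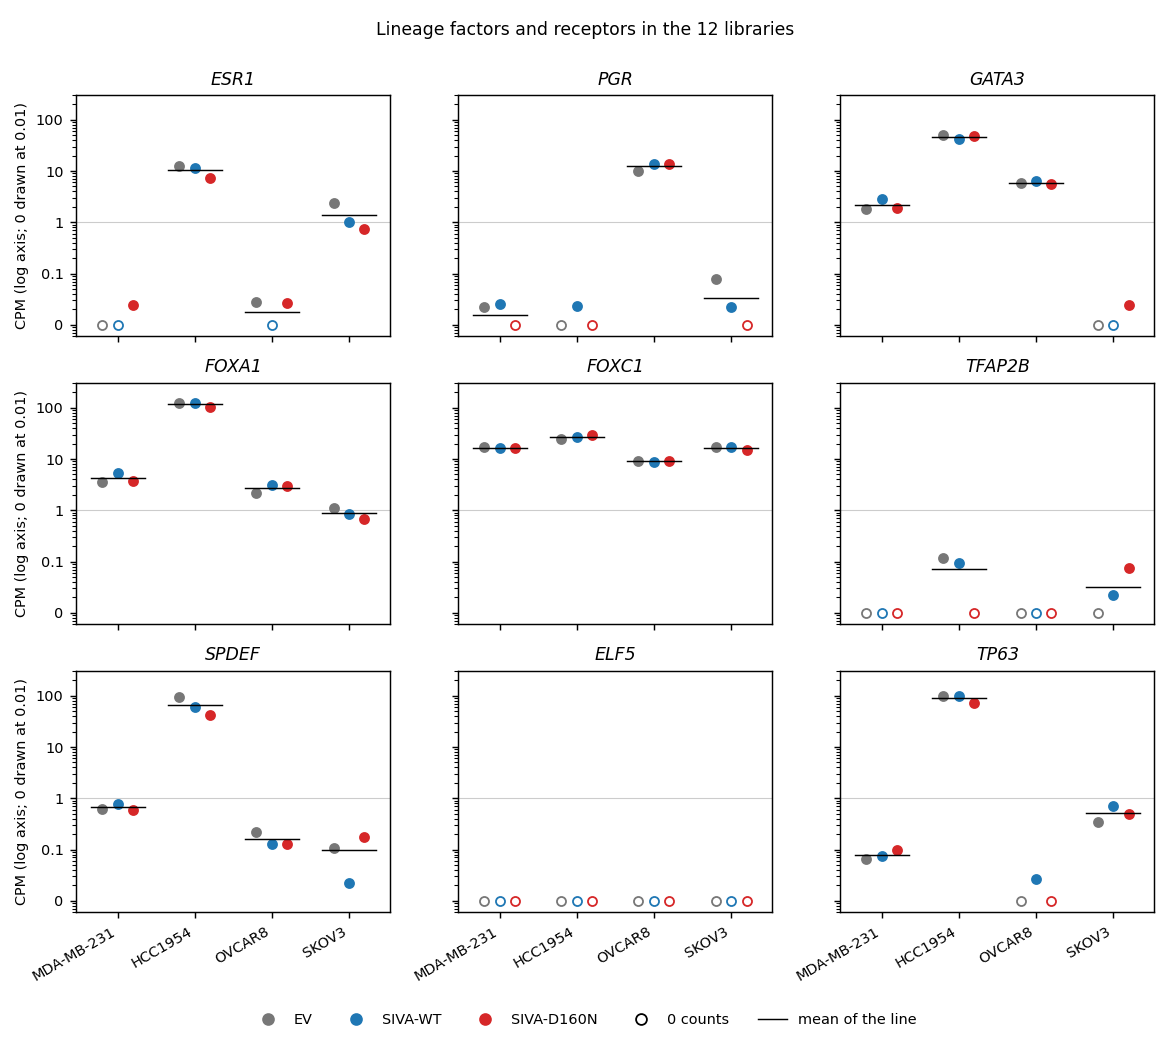
CPM of the 9 genes in the 12 libraries on a log axis, by line and condition. Open circles are 0 counts (drawn at 0.01), short bars are line means of at least 0.01, and the grey line marks 1 CPM. *ESR1*, *PGR* and *TP63* differ between lines by far more than between conditions, *FOXC1* sits between 8.59 and 29.5 CPM throughout, and *ELF5* is at 0 in all 12.

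Among the receptors, *ESR1* and *PGR* were found in different lines. In HCC1954, *ESR1* was at 12.3 CPM in EV, 11.4 in *SIVA-WT* and 7.39 in *SIVA-D160N*. In SKOV3 it was at 2.41, 1.01 and 0.739 CPM in the same order. MDA-MB-231 held 0, 0 and 1 counts and OVCAR8 1, 0 and 1, so that the libraries of HCC1954 lay above those of SKOV3 and these above the other lines, without overlap. Mean *ESR1* was 10.3 CPM ± 2.59 (SD, n = 3) in HCC1954 and 1.39 ± 0.897 in SKOV3, 7.79-fold apart (95% counting interval 6.62 to 9.21), and the fitted log2 fold change of SKOV3 vs HCC1954 was -3.01 (SE 0.31, FDR = 4.38e-06). MDA-MB-231 and OVCAR8, with summed counts of 1 and 2, could not be told apart (ratio 2.23, interval 0.116 to 132). *ESR1* overlaps *SYNE1* on the opposite strand, and the strand setting of the counting is not given in the sources used here. *SYNE1* was at 54.1 to 79.3 CPM in SKOV3 and at 24.4 to 37.2 CPM in MDA-MB-231, where *ESR1* had at most 1 count.

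*PGR* was found in OVCAR8. This line held 370, 531 and 518 counts (10.1, 14 and 13.6 CPM in EV, *SIVA-WT* and *SIVA-D160N*), and no other library held more than 3. In OVCAR8 *ESR1* summed to 2 counts, MDA-MB-231 held neither receptor above 2 counts, and the *ESR1* lines HCC1954 and SKOV3 summed to 1 and 4 *PGR* counts. The ratio of OVCAR8 to SKOV3 was 387 (interval 151 to 1420; FDR = 4.64e-08), and MDA-MB-231, HCC1954 and SKOV3 could not be ordered, with ratios of 1.9 to 3.9 whose intervals all held 1. On the length-scaled RPKM scale, *PGR* in OVCAR8 (0.854) was close to *ESR1* in HCC1954 (0.753).

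*GATA3* was highest in HCC1954, at 49.7, 42.8 and 47.4 CPM in EV, *SIVA-WT* and *SIVA-D160N*. OVCAR8, an ovarian line, held 5.92, 6.28 and 5.68 CPM and the breast line MDA-MB-231 only 1.79, 2.86 and 1.92, while SKOV3 held 1 count in all. The lines thus fell into 4 levels without overlap. OVCAR8 was 2.75-fold above MDA-MB-231 (interval 2.38 to 3.18), a log2 fold change of 1.44 (SE 0.20, FDR = 6.23e-05) that stayed under the fold threshold. HCC1954 was 7.81-fold above OVCAR8 (interval 7.21 to 8.47; FDR = 8.36e-08), and MDA-MB-231 was 267-fold above SKOV3 (interval 47.4 to 10600; FDR = 8.15e-08).

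*FOXA1* was highest in HCC1954, at 126, 124 and 104 CPM. It was at 3.49, 5.36 and 3.81 CPM in MDA-MB-231, 2.22, 3.18 and 2.93 in OVCAR8 and 1.11, 0.83 and 0.69 in SKOV3. HCC1954 stood 28.4-fold above MDA-MB-231 (log2 fold change 4.80, SE 0.19, FDR = 1.38e-09) and SKOV3 below OVCAR8 (log2 fold change -1.66, SE 0.21, FDR = 2.92e-05). MDA-MB-231 exceeded OVCAR8 by 1.5-fold, with no overlap of their libraries and no call (log2 fold change -0.60 for OVCAR8, SE 0.18, FDR = 0.0129). Its neighbour on the opposite strand, *TTC6*, had 4.02 to 4.69 CPM in HCC1954 and at most 0.219 elsewhere.

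The ETS factor *SPDEF* was found mostly in HCC1954, with 92.9, 60.6 and 42 CPM in EV, *SIVA-WT* and *SIVA-D160N*. MDA-MB-231 held 24 to 31 counts a library (mean 0.662 CPM), OVCAR8 5 to 8 and SKOV3 1 to 7. HCC1954 was 101-fold above MDA-MB-231 (interval 81.2 to 127; log2 fold change 6.55, SE 0.30, FDR = 4.11e-09), and MDA-MB-231 was above OVCAR8 (log2 fold change -2.05 for OVCAR8, SE 0.43, FDR = 0.00142). OVCAR8 and SKOV3 overlapped (log2 fold change -0.67, SE 0.62, FDR = 0.36). Per length, *SPDEF* (34 RPKM) exceeded *FOXA1* (26.7) in HCC1954 as a mean, although its libraries spread more widely. In the *SIVA-D160N* library the order was reversed, with *SPDEF* at 21.9 and *FOXA1* at 23.6 RPKM. *ELF5*, which drives milk-secreting alveolar cells, had 0 counts in all 12 libraries, so that it was not detectable at 0.0664 to 0.0856 CPM.

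The basal factor *TP63* was also carried by HCC1954, at 101, 98.1 and 70.6 CPM. SKOV3 held 13, 31 and 20 counts, MDA-MB-231 3, 3 and 4 and OVCAR8 0, 1 and 0. The lines followed in this order without overlap, HCC1954 at 175-fold over SKOV3 (interval 137 to 227; FDR = 2.59e-10) and SKOV3 at 6.55-fold over MDA-MB-231 (interval 3.34 to 14.3; FDR = 0.000115). OVCAR8 vs MDA-MB-231 was also called (log2 fold change -2.80, SE 0.93, FDR = 0.0204). That call rests on 1 count against 10, near the limit in both lines (ratio 8.95, interval 1.27 to 389). HCC1954 thus combined the luminal factors *GATA3*, *FOXA1* and *SPDEF* with *TP63* in the same bulk RNA, in which different cells with either set cannot be told apart from cells with both, nor fewer cells from less RNA per cell.

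*FOXC1* was the only member at 1 CPM or more in every line. It was at 24.4, 27.5 and 29.5 CPM in HCC1954, 17.3, 16.7 and 16.3 in MDA-MB-231, 17.4, 17.1 and 15.1 in SKOV3 and 9.13, 8.59 and 9.29 in OVCAR8. MDA-MB-231 and SKOV3 overlapped (log2 fold change -0.03, SE 0.12, FDR = 0.864), and the ratio of their summed counts was 1.02 (interval 0.956 to 1.08). Only OVCAR8 vs HCC1954 was called (log2 fold change -1.59, SE 0.13, FDR = 4.81e-07), although 4 of the other pairs had an FDR under 0.05 with smaller changes. *TFAP2B* gave 5, 4 and 0 counts in HCC1954, 0, 1 and 3 in SKOV3 and none elsewhere, at or near the limit.

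The families of these genes showed whether a relative was present where a member was absent. Among nuclear receptors, *NR3C1* (glucocorticoid receptor) was at 32.9 to 83.2 CPM in all 4 lines, and *ESR2* (estrogen receptor beta) had line means of at most 0.0995 CPM. SKOV3, which lacked *GATA3*, held *GATA6* at 5.43 CPM and *GATA2* at 1.97. *FOXA2* was at 17.9 CPM in MDA-MB-231, 0.236 in SKOV3 and at 0 counts in HCC1954 and OVCAR8. *TFAP2A* was in every line (5.12 to 81 CPM), while *TFAP2C* ran from 126 CPM in HCC1954 to 0.0504 in SKOV3, against the near absence of *TFAP2B*. The epithelial ETS factors *ELF3* and *EHF* were at 395 and 83.1 CPM in HCC1954, where *ELF5* was absent, and the mean of *EHF* was at most 0.0847 CPM in the other lines. *ELF1*, which is widely expressed, was at 29.6 to 61.7 CPM. *TP73*, a relative of *TP63*, was highest in OVCAR8 (10.6 CPM), the line lowest in *TP63*. Of 14 relatives, 12 were tested. In HCC1954 vs MDA-MB-231, 6 were called higher and 2 lower, beside 19.6% and 13.5% of all genes, and in SKOV3 vs OVCAR8 2 higher and 5 lower, beside 15.3% and 15.8%.

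**Figure D2:**
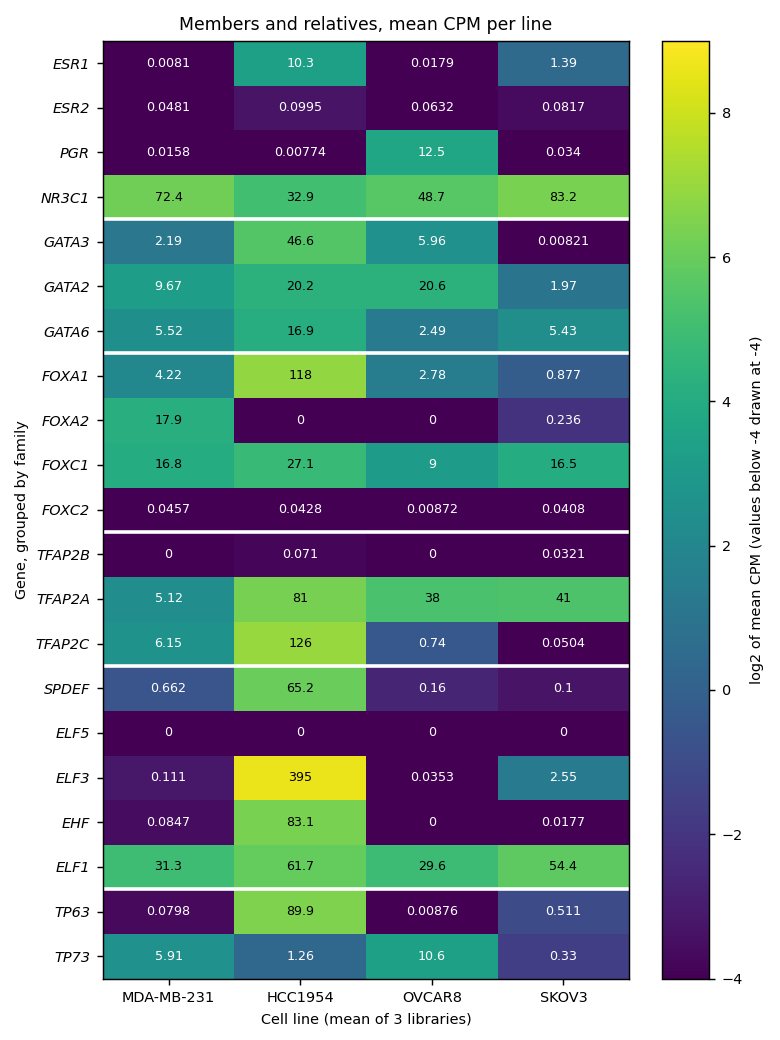
Mean CPM of the members and relatives reported here in each line (3 libraries each), grouped by family and separated by white lines; color is log2 of the mean CPM and the printed numbers are the means. *ELF3* at 395 CPM and *EHF* at 83.1 CPM fill the ETS family in HCC1954, where *ELF5* is at 0, and *NR3C1*, *TFAP2A* and *ELF1* are present in all 4 lines.

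Lists of genes around the members were compared between the same lines, and in HCC1954 vs MDA-MB-231 the share over all genes was 19.6% higher and 13.5% lower. Some list genes, such as *GRHL2*, *RAB25* and *KRT6A*, passed the filter only through HCC1954, so that their calls in pairs with that line follow from the filter. Of 15 luminal epithelial genes, 14 were called higher and 1 lower in HCC1954 vs MDA-MB-231, with a median log2 fold change of 6.13. *GRHL2* (24821 counts against 0), *CDH1* (E-cadherin, 93082 against 4) and *RAB25* (15606 against 2) led by fold change, and *KRT19* was lower (log2 fold change -1.91, SE 0.16, FDR = 6.72e-07). Among those called higher, *KIT* had only 7 counts against 0 (log2 fold change 4.36, SE 1.69, FDR = 0.0425). It was near the limit in both lines and passed the filter through SKOV3 (4559 counts). Basal and myoepithelial genes were also higher in HCC1954, with 12 higher and 1 lower of 17 tested (median 7.72). They were led by the basal keratins *KRT5* (47762 counts against 1) and *KRT6A* (11145 against 0) and by *TRIM29* (6714 against 0), and *LAMB3* was lower (log2 fold change -2.36, SE 0.15, FDR = 6.8e-08). In the estrogen and luminal program, 7 were higher and 3 lower of 14 tested (median 1.43, or 1.42 with genes of 3 or fewer counts in a line set to the limit). *TBX3* was at 2122 counts against 0, *AGR2* was higher by 9.56 (SE 0.24) and *RERG* was at 383 counts against 3, while *IGFBP4* (-7.67, SE 0.21), *CA12* (-2.73, SE 0.45) and the ESR1 target *GREB1* (-1.85, SE 0.29) were lower in HCC1954 on the log2 scale. *TFF1* and *TFF3*, classical estrogen targets, had 9 and 0 counts in HCC1954. Of the 14 cofactors of the receptors 2 were called higher and 1 lower, no more than these shares, and *NRIP1*, a corepressor of nuclear receptors, was higher by 3.52 (SE 0.31).

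Between the ovarian lines the lists ran in different directions. In SKOV3 vs OVCAR8, 9 of 17 basal genes were called higher and 1 lower (median log2 fold change 1.58), with *KRT17* 9.53 (SE 0.68) and *KRT14* 7.85 (SE 0.61) higher and *OXTR* -4.20 (SE 0.30) lower. Luminal epithelial genes were higher in 2 and lower in 7 of 15 (median -1.56, or -1.35 with low genes at the limit), with *KRT19* 6.39 (SE 0.53) higher and *KRT7* -5.27 (SE 0.21) lower. The estrogen and luminal program was higher in 3 and lower in 6 of 14 (median -0.94), with *CA12* 3.98 (SE 0.39) and *SLC39A6* 1.68 (SE 0.09) higher in SKOV3 and *STC2* -8.90 (SE 0.48) lower. The background in this pair was 15.3% higher and 15.8% lower.

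**Figure D3:**
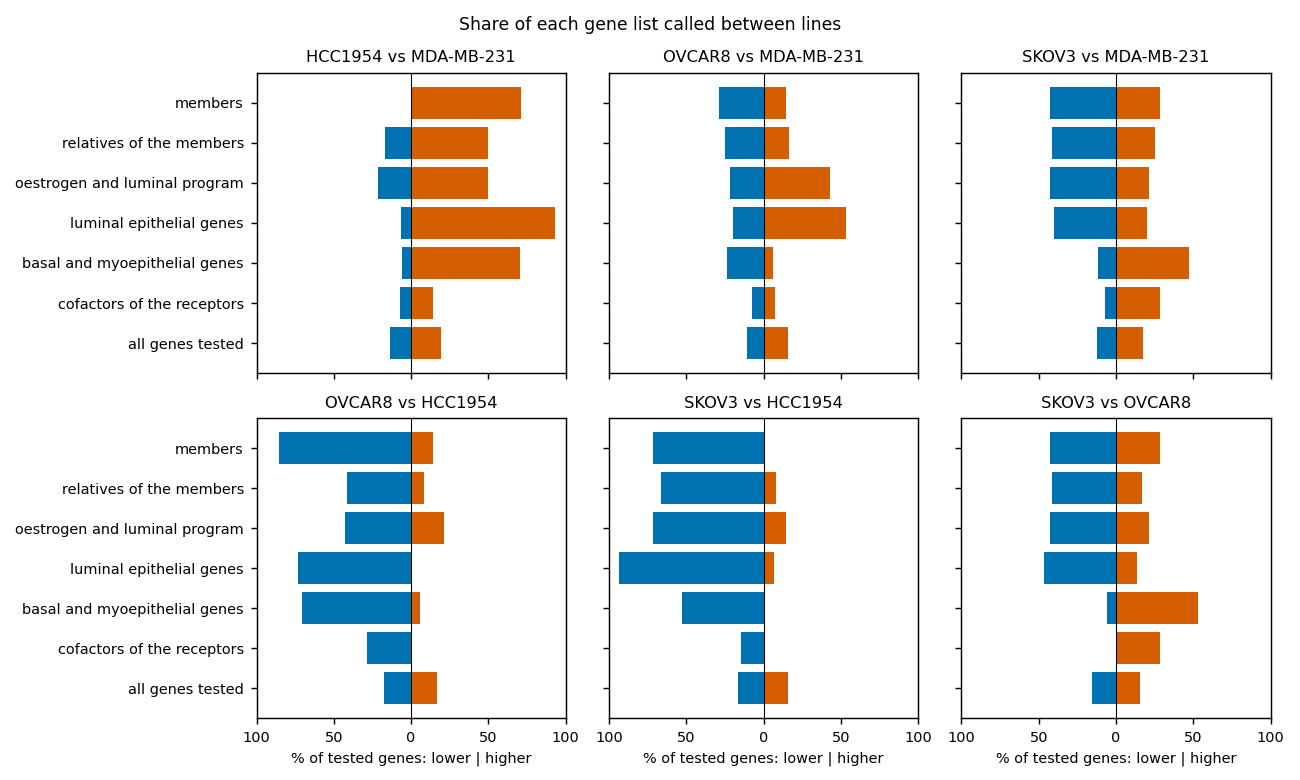
Share of the tested genes of each list called higher (orange, to the right) or lower (blue, to the left) in the first line of each pair, with all 19204 genes as the lowest bar. In HCC1954 vs MDA-MB-231 the members, the luminal and the basal lists lie to the right, and in SKOV3 vs OVCAR8 the luminal list lies to the left and the basal list to the right.

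Against the *SIVA* conditions, the members were tested with the lines as replicates (n = 4) and the line as a block, in 17211 genes. Of the 9 genes, 6 passed that filter, and *PGR*, *TFAP2B* and *ELF5* did not. For *SIVA-WT* vs EV, 0 of 6 were called by edgeR (0% of all genes), and 0 had an unadjusted p under 0.05 (2.54% of all genes). For *SIVA-D160N* vs EV, 0 of 6 were called (0.00581%) and 2, *ESR1* and *SPDEF*, had an unadjusted p under 0.05 (14.2%). For *SIVA-D160N* vs *SIVA-WT*, 0 were called (0%) and 0 had such a p (6.88%). DESeq2 and limma-voom also called 0 members in each. The median log2 fold change of the 6 was -0.17 in *SIVA-D160N* vs EV, against -0.01 over all genes, 0.07 in *SIVA-WT* vs EV (all genes -0.01) and -0.29 in *SIVA-D160N* vs *SIVA-WT* (all genes 0). The 3 contrasts share libraries. *SIVA1* itself, the transfected gene, was not called in this fit. Its log2 fold change was 1.97 (SE 0.68) in *SIVA-WT* vs EV and 1.71 (SE 0.67, FDR = 0.292) in *SIVA-D160N* vs EV. Hence 0 calls on the members do not show that they were unchanged.

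*ESR1* had the lowest value in *SIVA-D160N* vs EV, a log2 fold change of -1.10 (SE 0.36, FDR = 0.235). In HCC1954, the 259 counts of *SIVA-D160N* were 60.3% of the EV level (interval 51.7 to 70.2) and 65.1% of that of *SIVA-WT* (55.8 to 75.8), while *SIVA-WT* was at 92.6% of EV (81.7 to 105). In SKOV3, *SIVA-D160N* was at 30.7% of EV (19.6 to 46.8) and *SIVA-WT* at 41.8% (28.6 to 60.4), from 91 counts in EV. *SYNE1*, its opposite-strand neighbour, was also lower in SKOV3 (79.3 CPM in EV, 55 and 54.1 in the transfectants) but not in HCC1954 (2.57, 3.99 and 4.54), and its part was not tested. Without SKOV3 the fitted value was -0.62 (FDR = 0.54), and without HCC1954 -1.44 (FDR = 0.474).

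*SPDEF* had a log2 fold change of -0.72 (SE 0.30, FDR = 0.318). In HCC1954, *SIVA-D160N* stood at 45.2% of EV (interval 42.5 to 48) and *SIVA-WT* at 65.3% (62.1 to 68.6), and *SIVA-D160N* at 69.2% of *SIVA-WT* (64.9 to 73.8). In MDA-MB-231 the *SIVA-D160N* level was 94.1% of EV (52.2 to 168), and without HCC1954 the fitted value was -0.05 (FDR = 0.989). These within-line differences compare 1 library with 1 and have no replicate check. Of the 7 members kept in HCC1954, 1, *SPDEF*, was at least 2-fold lower in *SIVA-D160N* vs EV, beside 6.24% of genes. Against *SIVA-WT*, 0 of 7 were, beside 7.19%. In SKOV3 *ESR1* was at least 2-fold lower in *SIVA-D160N* vs EV, beside 6.43% of genes, and *PGR*, with 3 counts against 0, was at the limit and gives no fold.

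The other members had smaller fitted values in *SIVA-D160N* vs EV. *TP63* was at 69.9% of EV in HCC1954 *SIVA-D160N* cells (interval 66.5 to 73.5), 72% of *SIVA-WT* (68.5 to 75.7), and 97.1% of EV in *SIVA-WT* cells, against 143% (67.7 to 313) and 202% (103 to 420) in SKOV3, and the fitted log2 fold change was -0.26 (SE 0.24, FDR = 0.652), or 0.51 without HCC1954. In *SIVA-D160N* vs *SIVA-WT* the *TP63* value was -0.47 (SE 0.24, FDR = 0.744), that of *ESR1* -0.45 (SE 0.36, FDR = 0.818) and that of *SPDEF* -0.30 (SE 0.30, FDR = 0.862). *FOXA1* was at 83% of EV and 84.5% of *SIVA-WT* in HCC1954 *SIVA-D160N* cells and 132% of EV in those of OVCAR8, with a fitted -0.07 (SE 0.16, FDR = 0.871). *GATA3* (-0.01, SE 0.19, FDR = 0.991) and *FOXC1* (0.00, SE 0.11, FDR = 0.991) had estimates near 0. *PGR*, present only in OVCAR8, was at 138% of EV in *SIVA-WT* cells (120 to 158) and 134% in *SIVA-D160N* cells (117 to 153). Breast and ovarian lines were then compared in their *SIVA-D160N* vs EV change, and the difference was called for 0 of 6 members (0.00581% of all genes, FDR under 0.05) and 0 had an unadjusted p under 0.05 (5.06%), with *TP63* at 0.94 (SE 0.52) and *ESR1* at -0.97 (SE 0.67), ovarian minus breast. Both changed sign when a line was left out, *TP63* to -0.05 without HCC1954 and *ESR1* to 0.57 without SKOV3.

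**Figure D4:**
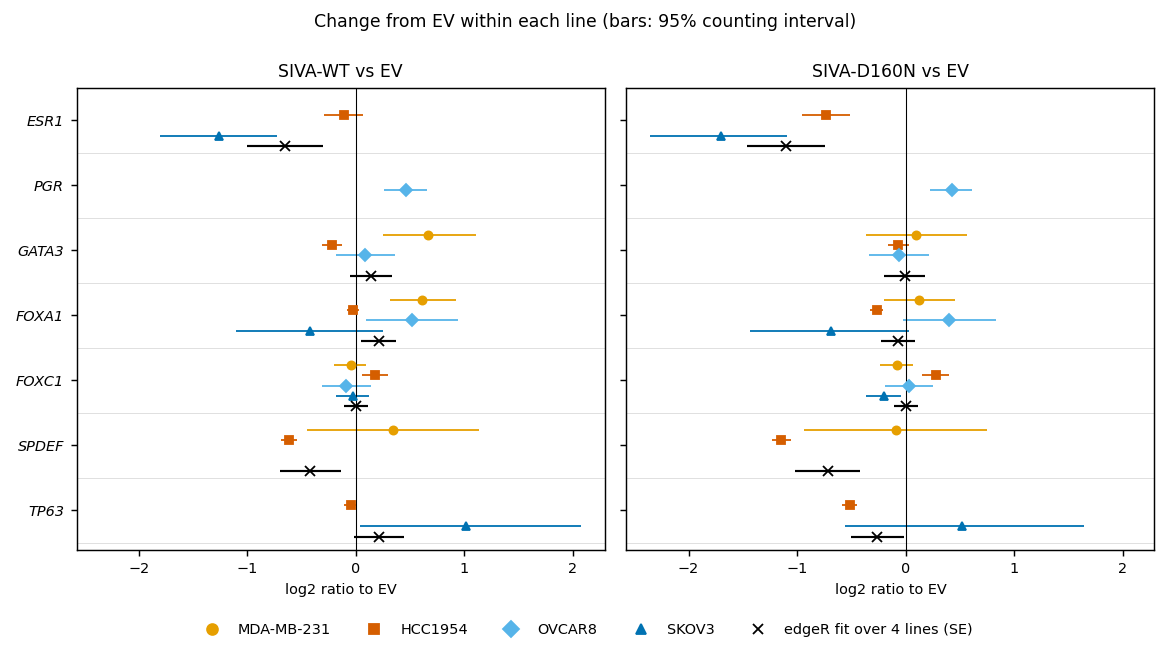
Log2 ratio to EV of the members within each line, for *SIVA-WT* (left) and *SIVA-D160N* (right), where the larger of the 2 libraries held at least 10 counts. Colored bars are 95% counting intervals, and black crosses with SE bars are the fits over 4 lines. The *ESR1* values of HCC1954 and SKOV3 and the *SPDEF* value of HCC1954 lie left of 0 in *SIVA-D160N*, at 60.3%, 30.7% and 45.2% of EV.

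The lists around the members were tested in the same fit, and no list held a called gene in *SIVA-D160N* vs EV. Beside 14.2% of all genes, unadjusted p under 0.05 were found in 3 of 14 genes of the estrogen and luminal program (median log2 fold change -0.26), 5 of 12 luminal epithelial genes (-0.15), 5 of 15 basal genes (0.17), 2 of 11 relatives (-0.08) and 0 of 14 cofactors (-0.01). Of the markers of other cells 2 were tested, both with an unadjusted p under 0.05 (median -1.07), and their part in these values was not tested. In HCC1954, 4 of 14 genes of the estrogen and luminal program were at least 2-fold lower in *SIVA-D160N* vs EV, beside 6.24% of genes. Named after their values were seen, these were *AGR2* (181 to 73.5 CPM), *PRLR* (prolactin receptor, 24.3 to 10.7), *RERG* (4.13 to 1.63) and *CA12* (29 to 5 counts). Against *SIVA-WT* the same 4 and *XBP1* (429 to 208 CPM) were at least 2-fold lower, beside 7.19% of genes. Of 17 basal genes, 5 were at least 2-fold higher in *SIVA-D160N* vs EV, beside 5.04%: *KRT6A* (33.4 to 191 CPM), *KRT6B* (5.85 to 24.9), *KRT5* (239 to 582), *LAMA3* (43.5 to 98.1) and *OXTR* (2.54 to 8.02). These differences have no replicate check. *TRIM29* was lower (81 to 27.4 CPM). For *SIVA-WT* vs EV in HCC1954, 3 of the 17 were at least 2-fold higher and 0 lower, beside 712 and 230 of 19204 genes. None of the 14 genes of the estrogen and luminal program was so in either direction. Both comparisons with EV share the library with 0 *SIVA1* counts. Against *SIVA-WT*, 2 of the 17 were at least 2-fold higher, *KRT6A* and *KRT6B* (beside 2.72%), and 2 lower, *TRIM29* and *ACTA2*. In SKOV3, 6 of the 17 were at least 2-fold higher in *SIVA-D160N* vs EV (2.98% of genes) and 2 lower (6.43%). Among the higher were *KRT17* (7.68 to 61 CPM) and *KRT14* (6.73 to 16.3), and the median log2 ratio of the 17 was 0. For *SIVA-WT* vs EV in SKOV3, 3 were higher and 2 lower (446 and 811 of 19204 genes). For *SIVA-D160N* vs EV in MDA-MB-231, 1 was higher and 2 lower (493 and 870 genes), and in OVCAR8 0 and 0 (433 and 362). The fall of the estrogen and luminal program in HCC1954 (median log2 ratio -0.36) was not shared by the other lines. Of its 14 genes, 2 were at least 2-fold higher and 3 lower in MDA-MB-231 (median -0.08). In OVCAR8 0 and 0 were (median -0.02), and in SKOV3 0 were higher and 2 lower (median 0.02).

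Likeness to other genes was measured by Pearson correlation of log2 CPM over the 12 libraries, among 19203 other genes. The 12 points are 3 libraries of each of 4 lines, so that these values mostly describe the order of 4 lines. *FOXA1* and *SPDEF* had 0.98, *ESR1* and *TP63* 0.92, *FOXA1* and *GATA3* 0.86 and *ESR1* and *PGR* -0.52. The genes most like *ESR1* were *MXRA5* (0.996), *CFI* (0.996) and *KCNMB2-AS1* (0.995), and those most like *PGR* were *ZNF660*, *IL12RB2* and *ZFP92* (0.997 each), 3 of 116 genes over 0.99. *SLC16A14* (0.996), *TNK1* (0.996) and the keratin *KRT7* (0.994) were nearest to *GATA3*. *FOXA1* was followed by *SOWAHB* (0.994), *ORAOV1* (0.99) and *CEACAM1* (0.989), and *SPDEF* by *TNS3* (0.991), *ERP27* (0.99) and *ENTPD3* (0.988). For *FOXC1* they were *TRIB2* (0.99), *MALL* (0.99) and *NPTN* (0.989), and for *TP63* RP11-206M11.7 (0.995), *ADAR* (0.994) and *ADIPOR1* (0.994). Which genes were nearest depended on the measure. By Spearman (rank) correlation, *MXRA5* had 0.888 with *ESR1*, and *OGFRP1* was highest (0.97). With *FOXC1*, *NPTN* had 0.853 by rank, and *RICTOR* was highest (0.979).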

How the data were processed

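Poly(A) RNA of 12 libraries (4 cell lines, 3 conditions) was sequenced by the authors with a stranded paired-end kit. Per the labels, reads were aligned with STAR 2.5.3a to GRCh38 and checked with FastQC, and edgeR was used. The annotation release and the strand setting of the counting are not given in the sources used here. The raw counts the authors deposited for 57187 genes were used as they stand. A deposited CPM table, the same counts rescaled for fewer genes, was not used. Every column was matched to its sample by its name.

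Models were fitted with edgeR 4.0.16 under R 4.3.3 (glmQLFit, glmQLFTest, TMM). Conditions were fitted with the line as a block after filterByExpr by condition (17211 genes), and lines with the condition as a term after filterByExpr by line (19204 genes). The line is the shared source of 3 libraries, and this pairing was checked: deviations from the condition means correlated at 0.929 to 0.968 within lines and -0.447 to -0.191 between them. Subtracting a mean over the lines itself pushes the values between lines below 0, so that only those within lines bear on the pairing. FDR is the Benjamini-Hochberg adjusted p over all genes tested. Genes were called at the thresholds of the study's methods, an FDR under 0.05 and 1.5 or more log2 units of change, and for the interaction by FDR alone. The study also removed genes without an Entrez identifier, which was not done here. It reported many more genes for *SIVA-D160N* vs control than the 1 called here, and the reason was not tested. A prior count of 2 was added for log2 ratios between libraries of a line. Intervals at 95% are exact (Clopper-Pearson on the split of counts). RPKM values use the length of the union of all exons of a gene, from a GENCODE release placed on an earlier genome build than that of the counts. No pair of the 66 pairs of libraries held identical counts. Each fit was run first on simulated counts, with the same spread for every gene and the same change in every line given it. Changes of 1 log2 unit were called in 2.82% (*SIVA-D160N* vs EV), 0% (HCC1954 vs MDA-MB-231) and 6.06% (breast and ovarian difference) of genes. For conditions and lines, 1 unit lies under the fold threshold of 1.5, which bars most such calls, so that those shares do not measure power. The breast and ovarian difference was called by FDR alone. Changes of 2 units were called in 98.4%, 98.6% and 71.4%. In the real counts the lines differed in their responses, so that these shares need not hold there.

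The genes, the lists, the tests and the alternatives (DESeq2 1.42.0, limma 3.58.1 voom, other normalizations, filters and thresholds, lines or conditions left out) were chosen with earlier results of these data known. All 9 genes are named, with their relatives, up to 3 called genes per list and direction in HCC1954 vs MDA-MB-231 and SKOV3 vs OVCAR8, and the 3 genes most correlated with each member that reached 1 CPM. A few genes that this rule names are counted in their lists but not reported here by name. Figures were drawn with matplotlib.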

Additional observations from a re-analysis of the deposited data

Results flagged for a closer look

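Of 42 sets of 4 values checked (1 value per line), 3 had a value far from the others. Chance gives about 1 in 20, so that 3 of 42 is no clear excess. All were of *PGR* in OVCAR8. Its log2 CPM was 3.81 in *SIVA-WT*, with the other lines at -3.79 to -3.73, and 3.77 in *SIVA-D160N*, with the other lines at -4.33. Those other values stand for 1 count in each *SIVA-WT* library and 0 in each *SIVA-D160N* library, so that the prior count sets how close they lie. The log2 ratio of *SIVA-D160N* vs *SIVA-WT* was -0.04 in OVCAR8, from 518 and 531 counts, against -0.59 to -0.54 in the other lines, which rest on 0 or 1 count a library.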

How the results depend on the processing

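Every count of members called stayed within 1.5 times of its value under each alternative, except that without the fold threshold 6 of 7 members passed in OVCAR8 vs MDA-MB-231, in place of 3. *TP63* in that pair was -2.18 (FDR = 0.132) without the *SIVA-D160N* libraries, where fewer samples were fitted, and *FOXA1* in SKOV3 vs OVCAR8 was -1.47, under the fold threshold. *GATA3* in OVCAR8 vs MDA-MB-231 passed at 1.62 without the *SIVA-WT* libraries. No condition call on a member was gained or lost without the replicate block, which gave 0 called in each contrast.

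The uncalled log2 fold changes given here changed sign, and the cause was not tested. *GATA3* in *SIVA-WT* vs EV was -0.03 with limma-voom and -0.15 without the block, and -0.08 to 0.36 leaving out a line. In *SIVA-D160N* vs *SIVA-WT* it was 0.02 with limma-voom and 0.08 without the block, and -0.32 to 0.03 leaving out a line. Its breast and ovarian difference was 0.01 with DESeq2 size factors, 0.07 with DESeq2, 0.10 with limma-voom, 0.01 without the block and -0.12 to 3.17 leaving out a line. With DESeq2 size factors or DESeq2, *FOXC1* was 0.00 in *SIVA-D160N* vs EV. Between *SIVA-D160N* and *SIVA-WT* it was -0.01 with these, and 0.00 with limma-voom or no filter. *TP63* in *SIVA-WT* vs EV was -0.04 without the block and -0.01 to 0.90 leaving out a line. Leaving out a line gave, in *SIVA-D160N* vs EV, *GATA3* -0.04 to 0.05, *FOXA1* -0.22 to 0.03, *FOXC1* -0.09 to 0.07 and *TP63* -0.45 to 0.51 (0.51 without HCC1954). *FOXC1* was -0.05 to 0.04 in *SIVA-WT* vs EV and -0.04 to 0.06 in *SIVA-D160N* vs *SIVA-WT*, where *SPDEF* was -0.47 to 0.15. The breast and ovarian difference was -4.76 to 0.57 for *ESR1*, -0.58 to 0.51 for *FOXA1* and -0.05 to 1.01 for *TP63*. Leaving out a condition, *PGR* was -2.23 to 0.01 in HCC1954 vs MDA-MB-231, -0.08 to 1.49 in SKOV3 vs MDA-MB-231 and -0.08 to 3.72 in SKOV3 vs HCC1954, all at 4 counts or fewer, and *FOXC1* was -0.06 to 0.01 in SKOV3 vs MDA-MB-231.

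Over all genes, *SIVA-D160N* vs EV called 1 gene, and 12 with DESeq2, 5 with limma-voom, 172 without the filter, 0 without the block, and 0, 2, 2 and 0 without MDA-MB-231, HCC1954, OVCAR8 and SKOV3. *SIVA-WT* vs EV called 0, and 1, 1 and 10 with the first 3 of these, and *SIVA-D160N* vs *SIVA-WT* called 0, 4 with DESeq2 and 59 without the filter. The interaction called 1, 12 with DESeq2, 101 without the filter, and 0 with limma-voom, without the block or without SKOV3. Without the fold threshold the line pairs called 13225 (HCC1954 vs MDA-MB-231), 11914 (OVCAR8 vs MDA-MB-231), 12608 (SKOV3 vs MDA-MB-231), 13471 (OVCAR8 vs HCC1954), 13124 (SKOV3 vs HCC1954) and 13181 (SKOV3 vs OVCAR8), in place of 6339, 5054, 5680, 6596, 6302 and 5976. Depth limits *TFAP2B*, *ELF5* and every level under 3 counts, for which fitted values depend on the prior count.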
